A study of Mus musculus with 24 samples.

Results

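The 10 genes described here encode the PGC-1 coactivators and the regulators of mitochondrial biogenesis that work with them. They were picked by name, for their known roles and with earlier results of these data known, from 55487 genes listed in the deposited table, and all 10 were among the 14541 genes tested. The group holds 4 coactivator genes (Ppargc1a, Ppargc1b, Pprc1 and Perm1), 2 nuclear receptor genes (Esrra and Esrrg), 2 nuclear respiratory factor genes (Nrf1 and Gabpa) and 2 genes for factors that transcribe mitochondrial DNA (Tfam and Tfb2m).

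RNA came from myotubes of C2C12, a mouse skeletal myoblast line whose cells fuse and differentiate in culture, taken on day 5 of differentiation. Every culture had been grown under 5 % O2, which the study uses as its physiological condition. One pair of groups stayed under 5 % O2 and the other pair spent 2 h under 1 % O2, and within each pair one group was left unstimulated (5 % CTRL, 1 % CTRL) and the other was made to contract by bouts of electrical pulses (5 % STIM, 1 % STIM) and harvested directly afterwards. Each of the 4 groups had 6 libraries, described as biological replicates of a single cell line with no genetic change in any group. By the study's methods, the 2 h came before stimulation, and medium was replaced before and after stimulation. Whether unstimulated cultures had the same total time and medium changes is not stated. An effect of contraction cannot be told apart from such differences here. The comparisons ask what low oxygen, contraction, and their combination do to mRNA levels within this short time.

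PGC-1 proteins do not bind DNA. They dock onto transcription factors such as the estrogen-related receptors (ERRs) and nuclear respiratory factor 1, recruit histone acetyltransferases and the Mediator complex, and so raise transcription of nuclear genes for the respiratory chain, fat oxidation and mitochondrial maintenance. Among the genes they act on are those for the factors that enter mitochondria and transcribe and package mitochondrial DNA. In skeletal muscle Ppargc1a is known as a gene that contraction induces, through calcium signalling, AMP-activated protein kinase and CREB.

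Libraries held 26541858 to 28173745 reads, so that 1 normalized count stood for about 1 read. Replicate 1 of 1 % CTRL stood apart, with a slope of its deviations on transcript length of 0.095 against −0.037 to −0.012 in the other 1 % CTRL libraries. In the other groups the slope ran from −0.023 (5 % STIM, replicate 6) to 0.055 (1 % STIM, replicate 3). Calls that changed without this library are given with and without it. All 10 myotube markers were expressed, among them Myog, Acta1 and Ryr1, and their summed level was 468754 to 514460 in 5 % CTRL, 421083 to 489705 in 5 % STIM, 410404 to 446868 in 1 % CTRL and 399283 to 449369 in 1 % STIM. Within that list the mean of Myog was 30613 in 5 % CTRL against 19439 in 1 % CTRL, and with contraction 21265 under 5 % O2 against 12522 under 1 % O2. The 6 myoblast markers summed to between 5019 and 6717 over all libraries, but their means moved in both directions from 5 % CTRL to 1 % CTRL. Myod1 went from 3524 to 2001 and Id3 from 70.8 to 32.2, whereas Pax7 went from 179 to 287, Myf5 from 149 to 231 and Top2a from 1264 to 2129.6, and Mki67 was at 1249.7 and 1239. The 3 endothelial markers summed to at most 15.2 and the 3 immune markers to at most 70.5, nearly all of it Cd68. The 4 fibroblast and adipogenic markers summed to 313 to 352 in 5 % CTRL, 208 to 266 in 1 % CTRL, 314 to 401 in 5 % STIM and 283 to 345 in 1 % STIM, and the 3 brown adipocyte markers to between 2475 and 3248, nearly all of it Dio2, while Ucp1 had group means under 1. The summed myotube and fibroblast markers were each lower in 1 % CTRL than in 5 % CTRL without overlap and overlapped between the contracting groups. The part of these markers in the oxygen results was not tested. In bulk RNA, fewer cells of a type and less RNA per cell cannot be told apart.

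The 10 genes differed widely in level. Levels are given per kilobase of exon, over all annotated exons of a gene merged. Which transcripts the cells held was not measured, so the order of genes depends on this length. The mean normalized count per kilobase in 5 % CTRL ran from 641 for Gabpa to 1.39 for Esrrg. After Gabpa came Tfb2m (522), Pprc1 (506) and Tfam (283), then Esrra (163), Nrf1 (90.4) and Ppargc1b (58.9), and at the bottom Perm1 (7.61), Ppargc1a (3.57) and Esrrg. Neighbours in this order whose libraries overlapped in 5 % CTRL were Tfb2m with Pprc1, Perm1 with Ppargc1a, and Ppargc1a with Esrrg. In the other 3 groups Tfb2m lay above Pprc1 without overlap, and Nrf1 and Ppargc1b overlapped each other in both groups under 1 % O2. In 1 % STIM the order at the bottom was Ppargc1a (9.74 per kilobase), Perm1 (6.45) and Esrrg (5.90), and each overlapped the next.

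**Figure D1:**
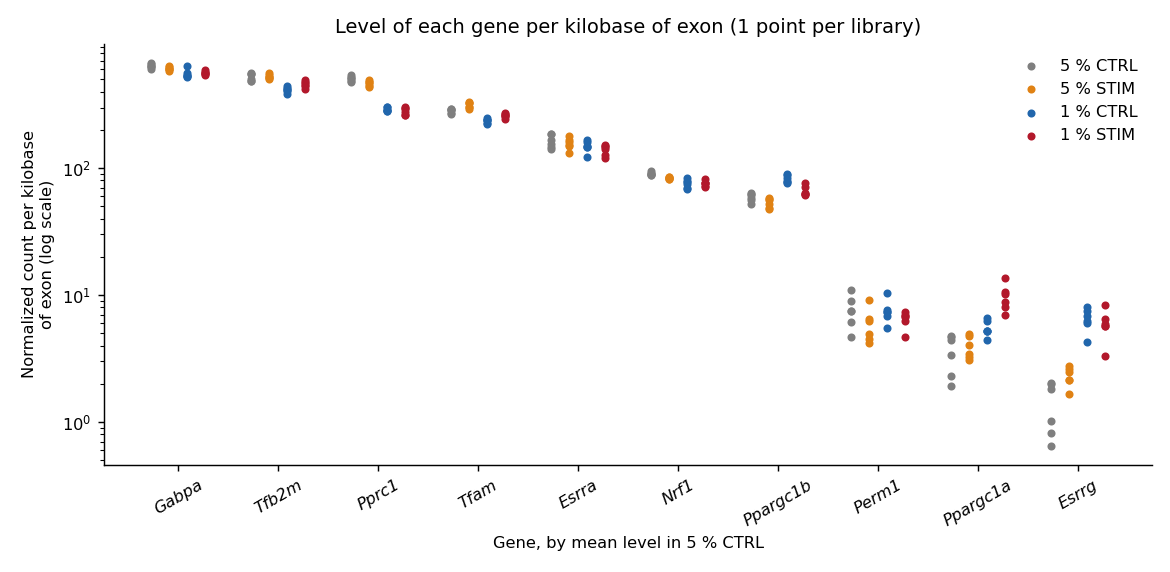
Normalized count per kilobase of exon (vertical axis, log scale) of each gene in each of the 24 libraries, coloured by group, with genes ordered by their mean in 5 % CTRL. Of the 3 PGC-1 coactivators, Pprc1 lies highest and Ppargc1a lowest in every group, and Esrrg in 5 % CTRL (mean 1.39) is the lowest set of points.

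Within the PGC-1 family, Pprc1 made up 89.0 % ± 0.514 (SD, n = 6) of the summed level per kilobase in 5 % CTRL, Ppargc1b 10.4 % ± 0.589 and Ppargc1a 0.623 % ± 0.201. In 1 % CTRL the shares were 76.7 % ± 0.605 for Pprc1, 21.9 % ± 0.722 for Ppargc1b and 1.45 % ± 0.218 for Ppargc1a. In 1 % STIM they were 78.9 % ± 1.24, 18.4 % ± 0.728 and 2.72 % ± 0.599. The summed level per kilobase was 568 ± 27.0 in 5 % CTRL, 521 ± 25.6 in 5 % STIM, 378 ± 14.6 in 1 % CTRL and 358 ± 22.6 in 1 % STIM (SD, n = 6). By this measure the myotubes held most of their PGC-1 family mRNA as Pprc1 in each group. The share of Pprc1 was smaller under 1 % O2 (the share was not tested).

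Low oxygen moved most of the 10 genes and contraction fewer, as was also so among all genes tested. The 10 genes were not tested as a set. Between 1 % CTRL and 5 % CTRL, 8 of the 10 genes passed the test (limma on log2(normalized count + 1), Benjamini-Hochberg adjusted p under 0.05 over all genes tested), where 59.9 % of all genes did. Ppargc1a, Ppargc1b and Esrrg were higher (3 of 10, against 29.4 % of all genes) and Pprc1, Nrf1, Gabpa, Tfam and Tfb2m lower (5 of 10, against 30.5 %) under 1 % O2. Among contracting cells the same 8 genes passed in the same directions between 1 % STIM and 5 % STIM, where 57.4 % of all genes passed, 29 % higher and 28.4 % lower. Contraction under 5 % O2 changed 4 genes, with Esrrg and Tfam higher and Pprc1 and Nrf1 lower, against 21.4 % of all genes, 9.44 % higher and 12 % lower. Contraction under 1 % O2 changed 4 genes, with Ppargc1a, Tfam and Tfb2m higher and Ppargc1b lower, against 22.3 % of all genes, 11.5 % higher and 10.8 % lower. Comparisons that share a group share its libraries, so their values for a gene are set side by side only.

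The interaction asks whether the response to contraction differed between the oxygen levels. With limma, 0 of the 10 genes passed, where 11.3 % of all genes did, 5.88 % higher and 5.43 % lower. At an unadjusted p under 0.05 there were 2, Ppargc1a and Esrrg. edgeR, DESeq2 and limma voom on whole reads also gave 0, and limma with array weights gave 1, Esrrg.

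Fold changes are differences on the log2(normalized count + 1) scale. For genes at low counts such as Esrrg, Ppargc1a and Perm1, they can lie above or below those of count tools. In 1 % CTRL against 5 % CTRL, Esrrg had 2.18 in limma and 2.23 in DESeq2, whereas Ppargc1a had 0.67 and 0.62. The median of the 10 log2 fold changes was −0.17 in 1 % CTRL against 5 % CTRL, with 0.0015 over all genes tested, and −0.13 in 1 % STIM against 5 % STIM, with −0.00083 over all genes. With libraries rescaled to the same total, the median of all genes moved up by 0.081 in the first of these and by 0.070 in the second. Over all genes, calls in the 4 pairwise comparisons were higher in 44.0 % to 51.4 % of cases with the authors' size factors, and in 62.1 % to 63.2 % after this rescaling.

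**Figure D2:**
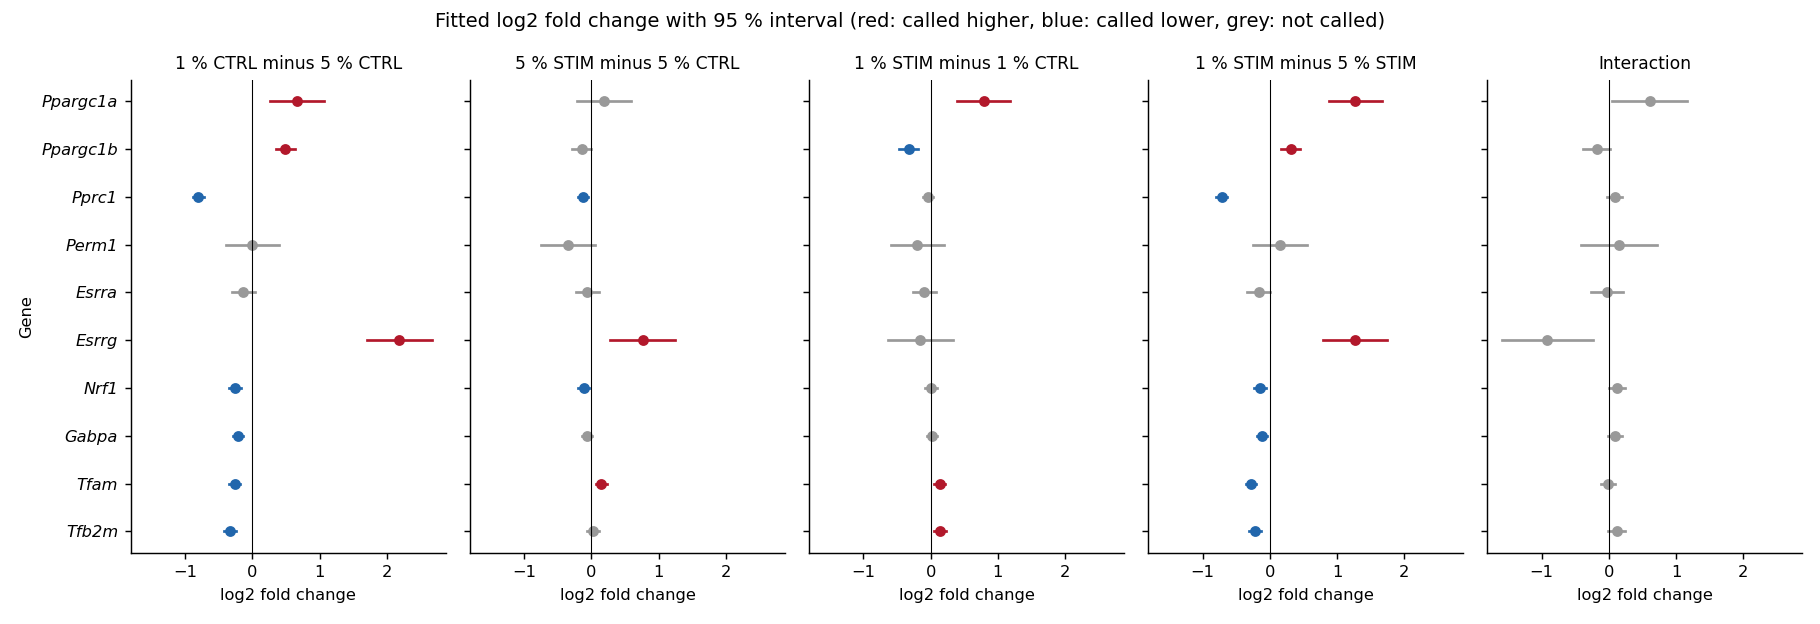
Fitted log2 fold change (horizontal axis) with its 95 % interval for each gene in the 4 pairwise comparisons and the interaction, with colour marking the genes called higher or lower. Esrrg has the largest change (2.18 in 1 % CTRL against 5 % CTRL), Pprc1 the largest fall (−0.80 in the same comparison), and no interval in the interaction belongs to a called gene.

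Ppargc1a encodes PGC-1α, the best known coactivator of the family (GRCm38, chromosome 5 from 51454250 to 51567726, minus strand). It was scarce in resting myotubes and was highest where low oxygen and contraction came together. Its normalized count was 12.6 to 31.4 in 5 % CTRL (median 25.6), 20.3 to 32.7 in 5 % STIM (median 24.7), 29.1 to 43.3 in 1 % CTRL (median 34.6) and 46.2 to 89.5 in 1 % STIM (median 63.0). Every 1 % STIM library lay above every library of the other 3 groups, whereas 5 % CTRL overlapped 5 % STIM and 1 % CTRL.

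Contraction under 1 % O2 took the Ppargc1a mean from 36.2 ± 5.20 to 64.2 ± 15.3 (SD, n = 6), 1.78 times as high, with a log2 fold change of 0.79 (SE 0.19, limma adjusted p = 0.00250). Under 5 % O2 the means were 23.5 ± 8.17 and 25.8 ± 5.28, with a log2 fold change of 0.19 (95 % interval −0.21 to 0.58) that did not pass. The difference between these responses was 0.61 (95 % interval 0.046 to 1.17) in the limma fit, with a p of 0.0350 before and 0.165 after adjustment, so the response to contraction was not shown to differ between oxygen levels after adjustment. Leaving out each library in turn, it lay between 0.51 and 0.76, with an adjusted p of at least 0.0555. Low oxygen raised Ppargc1a by 0.67 at rest (adjusted p = 0.00372) and by 1.27 in contracting cells (adjusted p = 1.03e-06).

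RefSeq windows of 250 bases before to 50 bases after the start (GRCm38.p6) were matched for 9 of the 10 genes, 13 windows in all. They were searched on both strands for letters of factors linked to these genes. These were TGACGTCA and its part TGACG (the whole and the core of the cyclic AMP response element), ACGTG (core of the hypoxia response element), AAGGTCA (the ERR core site), GCGCATG (one arm of the nuclear respiratory factor 1 site) and CCGGAAG (ETS site bound by GABP). Of all 32851 windows, 1.79 % held TGACGTCA, 20.8 % TGACG, 19.6 % ACGTG, 4.72 % AAGGTCA, 3.91 % GCGCATG and 8.86 % CCGGAAG. The Ppargc1a window held TGACG and ACGTG, both on the opposite strand to the gene and overlapping each other, within the 100 bases before its start. They are shown 5′ to 3′ on the gene's strand, with the overlapping matches in capitals. A link between these letters and the level of Ppargc1a was not tested.
Ppargc1a, chr5:51567726-51567825, minus strand: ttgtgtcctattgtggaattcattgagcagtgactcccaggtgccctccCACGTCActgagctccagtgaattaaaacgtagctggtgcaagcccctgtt
A match describes these letters only, and TGACG or ACGTG is common among all windows.

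Ppargc1b encodes PGC-1β, which coactivates ERRs in much the same way (chromosome 18 from 61298136 to 61400431, minus strand). It rose with low oxygen and, unlike Ppargc1a, was lower after contraction under 1 % O2. Normalized counts of Ppargc1b were 207 to 255 in 5 % CTRL (median 238), 190.1 to 231 in 5 % STIM (median 215), 306 to 361 in 1 % CTRL (median 326) and 245 to 304 in 1 % STIM (median 252). Every 1 % CTRL library lay above every other library, and 1 % STIM overlapped 5 % CTRL but not 5 % STIM.

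The mean of Ppargc1b rose from 235 ± 18.4 in 5 % CTRL to 331 ± 22.3 in 1 % CTRL (SD, n = 6), 40.8 % higher, with a log2 fold change of 0.49 (SE 0.069, limma adjusted p = 1.68e-07). Contraction under 1 % O2 lowered it to 264 ± 23.9, with a log2 fold change of −0.33 (SE 0.069, limma adjusted p = 4.64e-04). Under 5 % O2 contraction gave −0.14 (95 % interval −0.28 to −0.0044, adjusted p = 0.140), and the difference between the responses was −0.18 (adjusted p = 0.245). In contracting cells it was 0.31 higher under 1 % than under 5 % O2 (adjusted p = 2.39e-04).

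Pprc1 encodes PRC, the PGC-1-related coactivator, a growth-regulated protein that binds nuclear respiratory factor 1 (chromosome 19 from 46044886 to 46072915, plus strand). It was the most abundant coactivator and the only one of the 4 that fell with low oxygen. Normalized counts of Pprc1 were 3002 to 3381 in 5 % CTRL (median 3185), 2717 to 3099.5 in 5 % STIM (median 2937), 1762 to 1899 in 1 % CTRL (median 1795) and 1650.4 to 1896 in 1 % STIM (median 1792). All 12 libraries under 5 % O2 lay above all 12 under 1 % O2.

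The mean of Pprc1 dropped from 3180.0 ± 146 to 1821 ± 59.7 (SD, n = 6), 0.573 of its 5 % CTRL level, with a log2 fold change of −0.80 (SE 0.038, limma adjusted p = 8.02e-19). In contracting cells the log2 fold change with low oxygen was −0.72 (adjusted p = 2.52e-17). These falls were at percentiles 3.70 and 4.88 of the log2 fold changes of all genes tested. Contraction under 5 % O2 lowered it by a small amount, from 3180.0 to 2915 (log2 fold change −0.13, adjusted p = 0.0161). This last call was lost without replicate 1 of 5 % CTRL (adjusted p = 0.0516), without replicate 3 of 5 % STIM (0.0565) and with libraries rescaled to the same total (0.0676). Under 1 % O2 contraction gave −0.038 (95 % interval −0.12 to 0.040), and the difference between the responses was 0.088 (adjusted p = 0.325). Exons of Ldb1 on the opposite strand overlap 2.82 % of Pprc1's exon bases, and the counting is not stated to use strand. Ldb1 itself had a mean of 1212 in 5 % CTRL and 1763 in 1 % CTRL, higher where Pprc1 was lower.

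Perm1 encodes a muscle regulator that PGC-1 and ERR induce and that in turn acts on their targets (chromosome 4 from 156215868 to 156221307, plus strand). It was at a low level with no change past the test in any comparison. The Perm1 libraries held normalized counts of 18.3 to 42.5 in 5 % CTRL (median 29.3), 16.4 to 35.8 in 5 % STIM (median 21.8), 21.3 to 40.3 in 1 % CTRL (median 28.7) and 18.3 to 28.6 in 1 % STIM (median 26.2), and all 4 groups overlapped. The log2 fold change between 1 % CTRL and 5 % CTRL was −0.00041 (95 % interval −0.40 to 0.40), with a sign that flipped under other settings. Contraction gave −0.35 under 5 % O2 (95 % interval −0.75 to 0.047) and −0.20 under 1 % O2 (95 % interval −0.59 to 0.20). With 16 to 42 reads per library, these intervals leave room for changes in either direction.

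**Figure D3:**
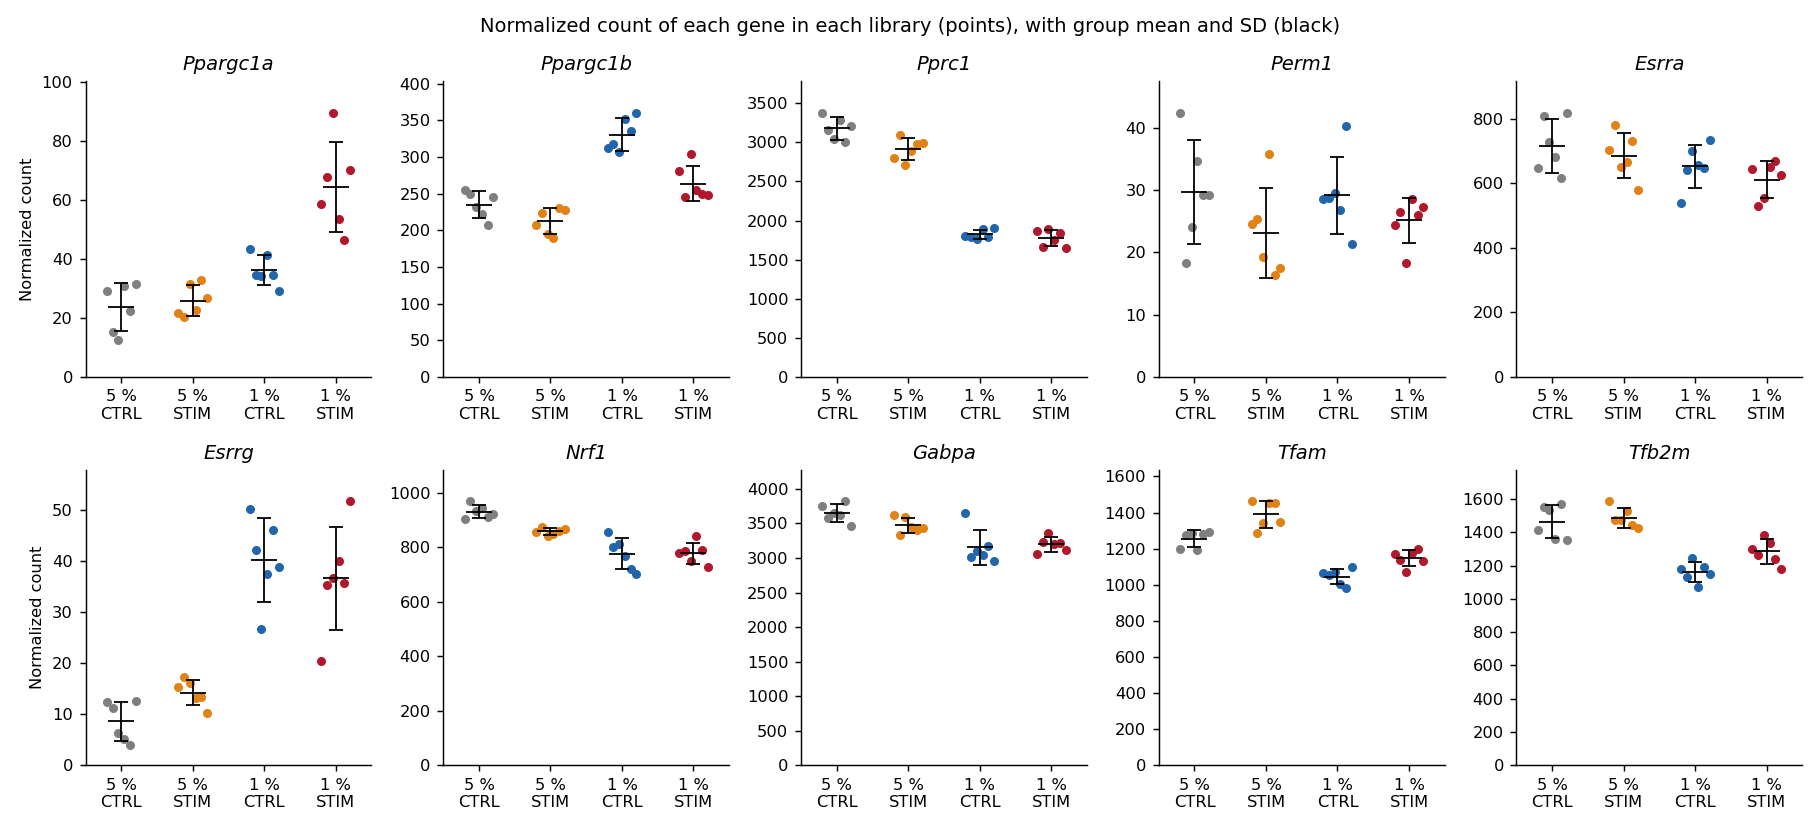
Normalized count (vertical axis, from 0) of each of the 10 genes in every library of the 4 groups, with the mean and SD of each group in black. The 12 libraries under 1 % O2 lie below all 12 under 5 % O2 for Pprc1 and above them for Esrrg, the 1 % STIM libraries of Ppargc1a lie above all others, and 1 library of 1 % CTRL stands above the rest for Gabpa (3647).

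Esrra encodes ERRα, the receptor through which PGC-1α drives much of the oxidative programme (chromosome 19 from 6910977 to 6921813, minus strand). No comparison moved it past the test. Its mean was 716 ± 83.9 in 5 % CTRL, 685 ± 70.3 in 5 % STIM, 652 ± 66.8 in 1 % CTRL and 611 ± 56.5 in 1 % STIM (SD, n = 6), and every pair of groups compared overlapped. Low oxygen gave a log2 fold change of −0.13 at rest (95 % interval −0.30 to 0.035, adjusted p = 0.166) and −0.16 in contracting cells (95 % interval −0.33 to 0.0061, adjusted p = 0.0934). The first passed with the slope on transcript length as a covariate (−0.17, adjusted p = 0.0165), and the second without replicate 6 of 5 % STIM (−0.21, adjusted p = 0.0283). Contraction gave −0.063 under 5 % O2 and −0.092 under 1 % O2. Without replicate 1 of 1 % CTRL, the value for low oxygen at rest was −0.080 and that for contraction under 1 % O2 −0.15, and neither passed. Trmt112 on the opposite strand and Mir6990 share 3.74 % of its exon bases.

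Esrrg encodes ERRγ, a constitutively active receptor of oxidative muscle fibres (chromosome 1 from 187608791 to 188214885, plus strand). Per kilobase it was the rarest of the 10 mRNAs at 5 % O2, and it had the largest rise with low oxygen at rest, while in contracting cells its rise was level with that of Ppargc1a (1.27 for both). The Esrrg libraries held normalized counts of 4.03 to 12.6 in 5 % CTRL (median 8.74), 10.3 to 17.2 in 5 % STIM (median 14.3), 26.6 to 50.2 in 1 % CTRL (median 40.5) and 20.5 to 51.7 in 1 % STIM (median 36.1). No library under 1 % O2 overlapped one under 5 % O2. Only 3 of the 6 libraries of 5 % CTRL reached the minimum count of 10, against all 18 others. It would have passed the filter on the groups under 5 % O2 alone.

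The Esrrg mean went from 8.60 ± 3.88 in 5 % CTRL to 40.2 ± 8.15 in 1 % CTRL (SD, n = 6), 4.68 times as high, with a log2 fold change of 2.18 (SE 0.24, limma adjusted p = 8.77e-10). By absolute change it ranked 73 among the genes tested. In contracting cells the log2 fold change with low oxygen was 1.27 (adjusted p = 2.32e-05). Contraction under 5 % O2 gave 0.76 (SE 0.24, limma adjusted p = 0.0184), and under 1 % O2 −0.15 (95 % interval −0.64 to 0.33), or −0.087 without replicate 1 of 1 % CTRL. The call under 5 % O2 rested on few reads. It was lost in edgeR (adjusted p = 0.0611), DESeq2 (0.0681) and limma voom (0.0618), with a pseudocount of 10 (0.0510), in a fit of these groups alone (0.0540), and without replicate 4 (0.0545) or replicate 5 (0.0643) of 5 % CTRL. The difference between the responses was −0.92 (95 % interval −1.60 to −0.23) in the limma fit, with a p of 0.00994 before and 0.0731 after adjustment. It passed with array weights (−0.97, adjusted p = 0.0342) and without replicate 1 (−1.03, 0.0412) or replicate 6 (−1.04, 0.0364) of 5 % CTRL, replicate 3 of 1 % CTRL (−1.03, 0.0472) or replicate 6 of 1 % STIM (−1.02, 0.0421).

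Nrf1 encodes nuclear respiratory factor 1, which switches on nuclear genes of the respiratory chain and of mitochondrial transcription (chromosome 6 from 30047988 to 30153458, plus strand). It was moderately lower under 1 % O2. Nrf1 libraries held normalized counts of 903 to 968 in 5 % CTRL (median 927), 843 to 876 in 5 % STIM (median 857), 704 to 856 in 1 % CTRL (median 784) and 729 to 840.3 in 1 % STIM (median 783). Each group pair other than 1 % STIM with 1 % CTRL was free of overlap in the comparisons made. Low oxygen gave a log2 fold change of −0.26 at rest (SE 0.042, limma adjusted p = 2.10e-06) and −0.14 in contracting cells (adjusted p = 0.00469), and the second did not pass after rescaling to the same total (adjusted p = 0.136). Contraction under 5 % O2 gave −0.12 with an adjusted p of 0.0468. This call was lost in 11 of the 12 fits that left out 1 library, whose adjusted p ran from 0.0478 to 0.103, and also with no filter (0.0978), with libraries rescaled to the same total (0.148) and with the length slope (0.11). Under 1 % O2 contraction gave 0.0054 (95 % interval −0.081 to 0.091).

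Gabpa encodes the DNA-binding α subunit of GABP, also called nuclear respiratory factor 2 (chromosome 16 from 84834925 to 84863779, plus strand). It had the highest level per kilobase of the 10 genes in every group, and it was lower under 1 % O2. Normalized counts of Gabpa were 3456 to 3818 in 5 % CTRL (median 3637), 3327 to 3614 in 5 % STIM (median 3445), 2959.6 to 3647 in 1 % CTRL (median 3070.5) and 3053 to 3358 in 1 % STIM (median 3205). The value of 3647 is replicate 1 of 1 % CTRL, the library that stood apart, and the other 5 lay at or below 3171 and so under every 5 % CTRL library. The log2 fold change at rest was −0.21 (SE 0.037, limma adjusted p = 9.74e-06) and −0.25 without this library (adjusted p = 4.18e-09). In contracting cells it was −0.12 (adjusted p = 0.00690), which did not pass after rescaling to the same total (adjusted p = 0.256).

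Contraction gave a log2 fold change of Gabpa of −0.071 under 5 % O2 (95 % interval −0.15 to 0.0048) and 0.021 under 1 % O2 (95 % interval −0.055 to 0.097), or 0.063 without that library. The difference between these was 0.092 (adjusted p = 0.284), and it became 0.13 and passed without replicate 1 of 1 % CTRL (adjusted p = 0.0247). Exons of Atp5j on the opposite strand overlap 6.98 % of Gabpa's exon bases, and 3.12 % of its 75-base words also occur there. Atp5j had a mean of 1554 in 5 % CTRL and 1643 in 1 % CTRL. Gabpb1, which encodes the β partner of GABP, fell from 1084 ± 31.9 to 609.9 ± 38.6 normalized counts (SD, n = 6) at rest under 1 % O2, a log2 fold change of −0.83 (adjusted p = 7.87e-18 from limma), and contraction under 1 % O2 raised it to 734 ± 39.7 (0.27, adjusted p = 1.02e-05).

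Tfam encodes the protein that coats mitochondrial DNA and bends its promoters for transcription (chromosome 10 from 71225464 to 71238280, minus strand). It was lower with low oxygen and higher with contraction, each by a small amount. Tfam was measured at normalized counts of 1191 to 1289 in 5 % CTRL (median 1279), 1288 to 1461 in 5 % STIM (median 1399.7), 981 to 1097 in 1 % CTRL (median 1059.8) and 1072 to 1199.5 in 1 % STIM (median 1154). The groups at rest did not overlap between oxygen levels, nor did the contracting groups, whereas contracting and resting cells at 1 oxygen level did.

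The Tfam mean was 1254 ± 46.5 in 5 % CTRL and 1046 ± 43.4 in 1 % CTRL (SD, n = 6), a log2 fold change of −0.26 (SE 0.038, limma adjusted p = 4.03e-07). In contracting cells low oxygen gave −0.28 (adjusted p = 1.89e-07). Contraction raised Tfam by 10.9 % under 5 % O2 (log2 fold change 0.15, SE 0.038, limma adjusted p = 0.00465) and by 9.77 % under 1 % O2 (0.13, SE 0.038, limma adjusted p = 0.00936). These 4 calls held in every fit that left out 1 library. The difference between the responses to contraction was −0.013 (95 % interval −0.12 to 0.097, adjusted p = 0.911).

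Tfb2m encodes the factor that opens mitochondrial promoters for the mitochondrial RNA polymerase (chromosome 1 from 179528055 to 179546267, minus strand). It was lower with low oxygen. Normalized counts of Tfb2m were 1352 to 1569.8 in 5 % CTRL (median 1476), 1423 to 1585 in 5 % STIM (median 1473), 1070.0 to 1246 in 1 % CTRL (median 1164) and 1180.5 to 1386 in 1 % STIM (median 1282). The groups under 5 % O2 overlapped each other, and 1 % CTRL lay below both. The log2 fold change with low oxygen was −0.33 at rest (SE 0.044, limma adjusted p = 5.33e-08) and −0.21 in contracting cells (adjusted p = 9.54e-05). Contraction gave 0.025 under 5 % O2 (95 % interval −0.064 to 0.11) and 0.15 under 1 % O2 (adjusted p = 0.0139), a call lost without replicate 4 of 1 % CTRL (adjusted p = 0.0505). The difference between the responses was 0.12 (adjusted p = 0.226). Tfb2m is uncertain in level, since 29.6 % of its 75-base words also occur in Gm1818, whose normalized count lay between 0 and 57.5.

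Other windows with a match are shown as 30 bases around it. These motifs also occur in 3.91 % (GCGCATG) to 19.6 % (ACGTG) of all windows. These shares are per window. Esrrg had 4 windows, so at least 1 match was more likely there than in a single window. Such matches describe letters only, and whether any is bound or matters for these genes was not tested. Capitals mark AAGGTCA in Perm1, GCGCATG in Esrra and Tfb2m, CCGGAAG in Gabpa and Tfam and ACGTG in the second of 4 windows of Esrrg, on either strand and with the gene's strand written 5′ to 3′.
Perm1, chr4:156215714-156215743, plus strand: ggaatccggtgTGACCTTagctaatgccaa
Esrra, chr19:6921823-6921852, minus strand: cccctgttttgCATGCGCaggccggccccg
Esrrg, chr1:187651743-187651772, plus strand: atgcaaagagaaACGTGcacataccacgca
Gabpa, chr16:84835020-84835049, plus strand: gagggtaagtgCTTCCGGgtccctcagcta
Tfam, chr10:71238073-71238102, minus strand: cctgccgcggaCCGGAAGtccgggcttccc
Tfb2m, chr1:179546244-179546273, minus strand: taggtcgttcgCATGCGCcattcgtaatgt
The matches began 202 bases before the start in Perm1, 33 in Esrra, 3 in Esrrg, 93 in Gabpa and 47 in Tfam, and at base 15 after the start in Tfb2m. The sites of Esrrg, Gabpa and Tfam lie upstream of the RefSeq start but inside the limits of the GENCODE M21 gene. The windows of Pprc1 and Nrf1 held none of the motifs. The Pprc1 window (chromosome 19 from 46056289 to 46056588) and the second Nrf1 window (chromosome 6 from 30076071 to 30076370) lie wholly inside these limits.

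For the 2 genes with the largest changes, the genes most like them were sought among 10795 genes whose mean reached 100, by the root-mean-square distance between their log2 differences of the other 3 groups from 5 % CTRL. Nearest to Esrrg (2.18 in 1 % CTRL, 0.76 in 5 % STIM and 2.03 in 1 % STIM) were Ddit4, an inhibitor of mTORC1 (2.40, 0.82 and 2.21, distance 0.17), Gpr146, a G protein-coupled receptor (2.29, 0.58 and 2.22, distance 0.17), and the long noncoding RNA Trp53cor1 (1.76, 0.60 and 2.08, distance 0.27). Nearest to Ppargc1a (0.67, 0.19 and 1.46) were Zfpm2, a GATA cofactor (0.62, 0.33 and 1.21, distance 0.17), the zinc finger gene Zc3h6 (0.78, 0.46 and 1.42, distance 0.17) and the ephrin gene Efna1 (0.77, 0.43 and 1.28, distance 0.19). No gene lay within 0.1 of either. The standard errors in 1 % CTRL against 5 % CTRL were 0.24 for Esrrg and 0.19 for Ppargc1a. Distances of this size therefore do not settle which genes are nearest, or that the 2 patterns are unusual.

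Genes around the 10 were counted in lists. Among 18 cofactors and modifiers of PGC-1 (acetyltransferases, deacetylases, corepressors, methyltransferases, ubiquitin ligases), 4 were higher and 12 lower in 1 % CTRL than in 5 % CTRL (against 29.4 % and 30.5 % of all genes), with a median log2 fold change of −0.30. Sirt1, the deacetylase that activates PGC-1α, fell from 1062 ± 61.6 to 593 ± 37.9 normalized counts (SD, n = 6), with a log2 fold change of −0.84 (adjusted p = 2.05e-16 from limma), and Fbxw7, a ubiquitin ligase subunit that marks PGC-1α for degradation, fell by 0.87 on the log2 scale (adjusted p = 2.26e-20). Lpin1, a partner of PGC-1α and PPARα, rose by 1.06 (adjusted p = 5.83e-13). Between 1 % STIM and 5 % STIM, 6 of this list were higher and 11 lower (29 % and 28.4 % of all genes), with Ncoa2 at 0.80.

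Contraction moved fewer genes of this list. Of its genes, 2 were higher and 7 lower under 5 % O2 (9.44 % and 12 % of all genes), with Lpin1 at 0.89 and Sirt1 at 0.22, and 6 were higher and 2 lower under 1 % O2 (11.5 % and 10.8 % of all genes), with Lpin1 at 0.88 and Sirt1 at 0.54. For Sirt1 the difference between the responses was 0.33 (adjusted p = 0.00145 from limma). Lpin1 rose with either stimulus and reached 982 ± 111 normalized counts in 1 % STIM from 257 ± 33.8 in 5 % CTRL.

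Among the partner transcription factors, 19 of the 23 listed passed the filter. Of these 5 were higher and 5 lower in 1 % CTRL than in 5 % CTRL, near the 29.4 % and 30.5 % of all genes, and 4 higher and 7 lower in 1 % STIM than in 5 % STIM (29 % and 28.4 % of all genes). Ppara, the fatty acid receptor, had 3.09 ± 1.84 normalized counts in 5 % CTRL, 2.55 ± 1.41 in 5 % STIM, 10.5 ± 1.85 in 1 % CTRL and 12.9 ± 3.501 in 1 % STIM (SD, n = 6). It passed the filter only through the groups under 1 % O2, where it is high, so its call adds nothing to these values. Foxo3 rose by 0.48 and Gabpb1, given above, fell. With contraction 4 were higher and 1 lower under 5 % O2 (9.44 % and 12 % of all genes), and 5 higher and 4 lower under 1 % O2 (11.5 % and 10.8 %). Pparg rose in both (0.29, adjusted p = 0.0316, and 0.33, adjusted p = 0.0146). Foxo1 rose under 5 % O2 (0.14) and fell under 1 % O2 (−0.28), and the difference of −0.42 passed (adjusted p = 1.87e-07).

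The upstream list holds 23 genes of calcium, AMP-activated kinase, p38 and CREB coactivator signalling. With low oxygen at rest 6 were higher and 11 lower (29.4 % and 30.5 % of all genes), led by Mapk11 at 1.02 (p38β, adjusted p = 5.75e-14 from limma) and Crtc1, a CREB coactivator, at −0.40. In contracting cells 5 were higher and 9 lower (29 % and 28.4 % of all genes). Contraction gave 4 higher and 6 lower under 5 % O2 (9.44 % and 12 % of all genes), and 2 higher and 6 lower under 1 % O2 (11.5 % and 10.8 %). Prkag3, the AMP-activated kinase γ subunit of glycolytic muscle, fell in both, by 0.28 and by 0.50 on the log2 scale, and Crtc3 rose by 0.29 under 1 % O2.

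Of 26 genes known as muscle targets of PGC-1 and ERR, 3 were higher and 8 lower in 1 % CTRL than in 5 % CTRL, with a median log2 fold change of −0.016. The lower share is close to that of all genes tested (30.5 %), and 29.4 % of all genes were higher. Pdk4, the kinase that shuts pyruvate dehydrogenase, fell from 891 ± 39.4 to 405 ± 48.9 normalized counts (SD, n = 6), and Slc2a4, the insulin-responsive glucose transporter, fell by 0.68 on the log2 scale, while Kyat3, the kynurenine aminotransferase gene, rose by 0.83. In contracting cells 5 were higher and 9 lower with low oxygen (29 % and 28.4 % of all genes), with Fndc5 at −0.51. Contraction made 4 higher and 1 lower under 5 % O2 (9.44 % and 12 % of all genes), and 4 higher and 2 lower under 1 % O2 (11.5 % and 10.8 %). Pdk4 rose with contraction by 0.89 under 5 % O2 (adjusted p = 9.83e-10) and by 1.56 under 1 % O2 (adjusted p = 1.27e-14), and Ucp3, a mitochondrial carrier, by 0.92 and 1.20. For Pdk4 the difference between the responses passed (0.66, adjusted p = 1.09e-04). Vegfa rose with contraction under 5 % O2 (0.18) and fell under 1 % O2 (−0.41), a difference of −0.59 (adjusted p = 1.82e-11).

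The interaction is the log2 fold change with contraction under 1 % O2 minus that under 5 % O2, and its sign does not say which response was larger in size. It was positive and passed for 6 of the 18 cofactors, 4 of the 14 mitochondrial transcription genes, 2 of the 18 DNA replication genes and 2 of the 13 mitochondrially encoded mRNAs, where 5.88 % of all genes did. It was negative and passed for 1 of the DNA replication genes and for 2 of the 19 partner factors, Foxo1 and Foxo3, where 5.43 % of all genes did. The upstream and target lists each had 1 gene in either direction. Among the positive ones, Supv3l1, an RNA helicase of mitochondria, had means of 917 and 807 in 5 % CTRL and 5 % STIM, and of 741 and 756 in 1 % CTRL and 1 % STIM.

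**Figure D4:**
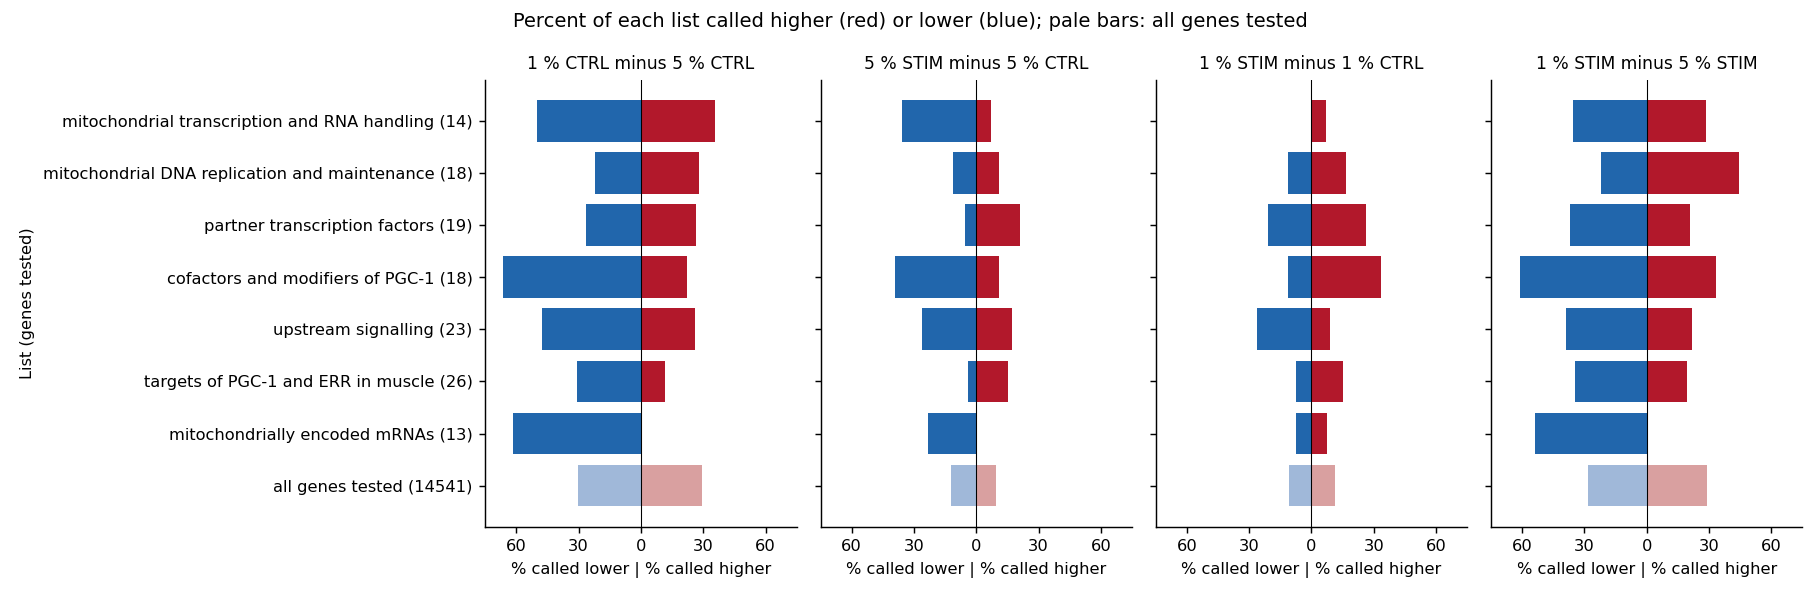
Percent of the genes tested in each list (number in parentheses) that were called higher (red, to the right) or lower (blue, to the left) in the 4 pairwise comparisons, with all 14541 genes tested in pale colours. In 1 % CTRL against 5 % CTRL the cofactor list has 12 of 18 genes lower and the mitochondrially encoded mRNAs have 8 of 13 lower and none higher, where 30.5 % of all genes were lower.

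A pair of lists covers the machinery that Tfam and Tfb2m work with. Of 14 genes for mitochondrial transcription and RNA handling, 5 were higher and 7 lower with low oxygen at rest (29.4 % and 30.5 % of all genes), and 4 higher and 5 lower in contracting cells (29 % and 28.4 %). Mterf2, a termination factor family member, rose from 113 ± 11.6 to 212 ± 18.5 normalized counts (SD, n = 6) at rest (log2 fold change 0.91, adjusted p = 1.55e-11 from limma), and Elac2, which cuts transfer RNAs from the long mitochondrial transcripts, fell by 0.41 on the log2 scale. Contraction under 5 % O2 left 1 higher and 5 lower (9.44 % and 12 % of all genes), among them Polrmt, the mitochondrial RNA polymerase, at −0.24 (adjusted p = 0.0138). Under 1 % O2 it left 1 higher, Elac2 at 0.093, and 0 lower (11.5 % and 10.8 % of all genes). Of 18 genes for mitochondrial DNA replication and upkeep, 5 were higher and 4 lower with low oxygen at rest (29.4 % and 30.5 % of all genes) and 8 higher and 4 lower in contracting cells (29 % and 28.4 %), led by the helicase and nuclease gene Dna2 (1.02 and 1.05). Contraction gave 2 higher and 2 lower under 5 % O2 (9.44 % and 12 % of all genes), and 3 higher and 2 lower under 1 % O2 (11.5 % and 10.8 %), with Twnk, the mitochondrial helicase, at 0.26 under 1 % O2 (adjusted p = 2.17e-07).

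The 13 mRNAs made from mitochondrial DNA are the product that Tfam and Tfb2m serve. Their counts depend on how the mRNA library preparation captured them, which was not tested. With low oxygen at rest 8 were lower and 0 higher (30.5 % and 29.4 % of all genes), with a median log2 fold change of −0.34, and in contracting cells 7 were lower and 0 higher (28.4 % and 29 %), with a median of −0.49. In both comparisons mt-Nd1, mt-Nd2 and mt-Atp6 had the largest changes among those called. The mean of mt-Nd1, a complex I subunit, was 78510.5 ± 2482 in 5 % CTRL and 40976 ± 2368 in 1 % CTRL (SD, n = 6), a log2 fold change of −0.94 (adjusted p = 1.30e-15 from limma). Contraction lowered 3 under 5 % O2, mt-Nd1, mt-Cytb and mt-Nd2, by 0.24 to 0.35 on the log2 scale. Under 1 % O2 contraction raised mt-Nd2 (0.22) and lowered mt-Cytb (−0.32), and the difference between the responses passed for mt-Nd2 (0.46, adjusted p = 1.75e-04) and mt-Nd1 (0.42, adjusted p = 1.15e-04).

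Together the 13 mRNAs took 2.14 % to 2.41 % of the normalized counts of a library in 5 % CTRL (median 2.32 %), 1.99 % to 2.35 % in 5 % STIM (median 2.19 %), 1.70 % to 1.92 % in 1 % CTRL (median 1.77 %) and 1.70 % to 2.09 % in 1 % STIM (median 1.78 %). The resting groups did not overlap, with every 1 % CTRL library below every 5 % CTRL library. The difference in means between 1 % CTRL and 5 % CTRL was −0.498 percentage points (two-sided exact permutation p = 0.00216, the smallest that 6 against 6 libraries can give, adjusted p = 0.00866 over 4 comparisons). Between 1 % STIM and 5 % STIM it was −0.318 (exact permutation p = 0.0108, adjusted p = 0.0216). Contraction gave −0.123 under 5 % O2 (exact permutation p = 0.104, adjusted p = 0.139) and 0.0572 under 1 % O2 (exact permutation p = 0.446, adjusted p = 0.446).

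**Figure D5:**
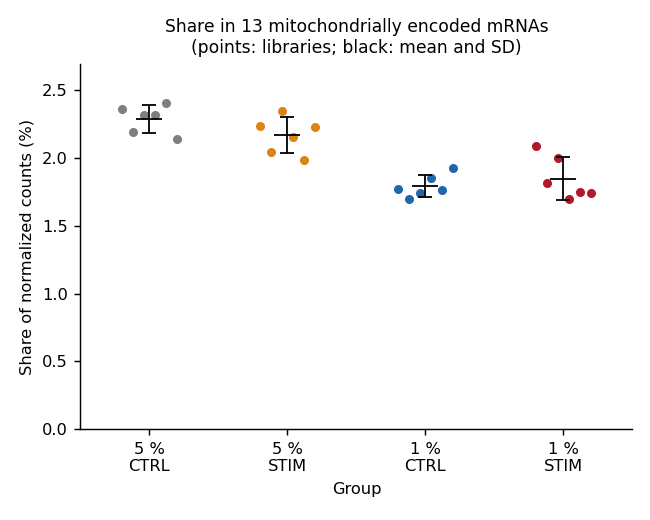
Share of a library's normalized counts in the 13 mitochondrially encoded mRNAs (vertical axis, percent, from 0) for the 6 libraries of each group, with mean and SD in black. The 1 % CTRL libraries (1.70 % to 1.92 %) lie below all 5 % CTRL libraries (2.14 % to 2.41 %), and 1 % STIM overlaps both 1 % CTRL and 5 % STIM.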

How the data were processed

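The authors prepared stranded libraries from mRNA for single-end reads, checked these with FastQC 0.11.7, mapped them to GRCm38 by STAR 2.5.4b and estimated gene counts by RSEM 1.3.0, per the labels and the study's methods. What the authors deposited is a signal per gene, this count over the DESeq2 size factor of its library, unfiltered. A second deposited table holds the authors' own log2 fold changes, F statistics, p-values and calls, and was not used. Dividing each library by its smallest step gave whole reads for 100 % of values within 0.001, at size factors of 0.955 to 0.992 under 5 % O2 and 1.02 to 1.05 under 1 % O2. Replicates differed by more than counting noise (chi-square per gene at least 2.54), and p-values measure the spread between cultures of 1 line.

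Genes that reached a normalized count of 10 in 6 or more of the 24 libraries were fitted as log2(normalized count + 1) with limma 3.58.1 in R 4.3.3 (4 group means, eBayes with trend and robust, no block), with adjustment over the 14541 genes tested and a threshold of 0.05. Calculations were tested on simulated data. The share of mitochondrially encoded mRNAs was compared by exact permutation over 924 splits. Alternatives were no filter, a pseudocount of 10, a block for the replicate number, a threshold of 0.01, the compared groups alone, rescaling to the same total, array weights, the length slope as covariate, edgeR 4.0.16, DESeq2 1.42.0 and limma voom on whole reads, and leaving out each library. Named genes are the 10 members, up to 3 called genes per list and comparison with the largest change, and the 3 genes nearest to each of the 2 members with the largest change. The members and lists were chosen with earlier results of these data known. Gene limits are from GENCODE M21 and promoter sequences from RefSeq; the window of Ppargc1b is not shown.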

Additional observations from a re-analysis of the deposited data

Results flagged for a closer look

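Of 44 sets of 6 libraries examined (the 10 genes and the mitochondrial share in each group), 1 held a library far from the others, where chance gives about 2.2. Gabpa in replicate 1 of 1 % CTRL was at 3647 normalized counts, against 2959.6 to 3171 in the other 5, with a gap of 0.69 of the whole range. It is the library whose values also depended most on transcript length, and the part of that in the Gabpa value was not tested. Without it the mean of Gabpa in 1 % CTRL was 3057 ± 80.3 (SD, n = 5) in place of 3155 ± 251 (n = 6).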

How the results depend on the processing

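Of 540 log2 fold changes of the 10 genes refitted under other settings, 517 kept their direction and their side of the threshold, 15 lost a call, 2 gained one and 6 changed sign. The sign of Perm1 in 1 % CTRL against 5 % CTRL changed to 0.078 with rescaling to the same total, 0.050 with array weights, 0.00050 with the length slope and 0.0044 in limma voom, and ran from −0.12 to 0.11 when 1 library was left out. The length slope also turned Nrf1 in 1 % STIM against 1 % CTRL to −0.0020 (−0.022 to 0.034 without 1 library) and the interaction of Esrra to 0.082 (−0.083 to 0.013 without 1 library), and the interaction of Tfam ran from −0.035 to 0.0060. Contraction under 5 % O2 was the least stable comparison, with 1 of the 10 genes called at a threshold of 0.01 (and 1944 genes in all, against 3115), 2 after rescaling and 2 to 3 without 1 library. In the interaction, 830 genes were called at 0.01 against 1645, and of the 10 genes 1 with array weights and 0 to 1 without 1 library. The mitochondrial share in 5 % STIM against 5 % CTRL passed as a sum of normalized counts (−47844, adjusted p = 0.0491). Causes were not tested. Same-numbered libraries did not deviate together (r from −0.15 to 0.15, at most 1 of 6 pairs above 0.1 in any pair of groups, and at most 2 libraries best with their own number), and with a replicate block the counts of called members stayed at 8, 4, 4, 8 and 0 and no call of a member changed (8730, 3190, 3320, 8350 and 1710 genes in all). Genes at about 10 reads, Esrrg in 5 % CTRL above all, have the least precision.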
